A study of Mus musculus with 16 samples.

Results

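RNA-seq counts from the E15.5 cortex were compared between 4 *Knl1* cKO mice and 4 *Knl1* *Trp53* dKO mice, 8 of the 15 mice sequenced. Mice of both genotypes carried *hGFAP-Cre* and *Knl1*fl/fl, and the dKO mice were *Trp53*fl/fl as well, so that both groups lacked *Knl1* in the recombined cells and dKO also lacked *Trp53* there. The mice were taken by genotype and not by any measured value. The cKO mice were 5, 7, S2 and F3, and the dKO mice were T2, T8, F1 and F7. Mouse S2 had a pair of libraries, which differed by little more than sampling noise and were added together as 1 sample. The 7 ctrl mice, 5 of them wild type and 2 heterozygous for *Knl1*, served to place the levels. *hGFAP-Cre* recombines in the NPCs of the embryonic cortex, while the RNA came from the whole cortex and so also from cells outside that lineage.

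KNL1 is a kinetochore scaffold that recruits the proteins of the spindle assembly checkpoint, and its loss lets chromosomes missegregate. p53, the product of *Trp53*, is a transcription factor that is stabilized after DNA damage. It switches on inhibitors of the cell cycle such as *Cdkn1a*, its own inhibitor *Mdm2*, and genes for death receptors and proteins of the BCL2 family. In the developing cortex p53 is known for the death of NPCs after failed mitoses. The comparison of cKO with dKO asks which genes depended on p53 when *Knl1* was already missing.

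Genotype went with batch. All 4 dKO libraries were made in batch 3, with F3 as the only cKO library of that batch, while 5, 7 and S2 were made in batch 1. Litter 3 gave T2 and T8, and litter 4 gave F1, F7 and F3. The other cKO mice came from litters 1 and 2. F3 is therefore the cKO mouse that can be set against dKO mice of its own batch, and against F1 and F7 of its own litter. Total counts were between 4178461 and 8800987 in cKO and between 552186 and 5396803 in dKO, with T2 the lowest and T8 at 1023405. In T2, 3 counts correspond to 5.43 reads scaled to library size (CPM, counts per 1e6), and in S2 to 0.341 CPM. These floors cover counting error only. The litter 4 libraries stood apart from the others. The noncoding RNA *Gm42418* was at 20405 CPM in F3, 38808 CPM in F1 and 3048 CPM in F7, against 585 to 774 CPM in the other 5 knockout mice.

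Neither deleted gene passed the test on its total count. *Knl1* (chromosome 2, 119047119 to 119105501, GRCm38) was at 51.8, 50.5, 80.4 and 50 CPM in cKO mice 5, 7, S2 and F3, and at 49.7, 58.2, 58.0 and 33.4 CPM in dKO mice T2, T8, F1 and F7. Its log fold change in cKO versus dKO was 0.27 (edgeR FDR of 1, standard error or SE of 0.224). *Trp53* (chromosome 11, 69580359 to 69591873) was at 24, 33.3, 30.4 and 25.7 CPM in cKO and at 24.9, 32.3, 23.5 and 19.8 CPM in dKO, in the same order of mice. The log fold change of *Trp53* was 0.26 (edgeR FDR of 1, SE of 0.199), and the groups overlapped. The counts cover whole genes, so they do not show whether the reads lie within the deleted exons.

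At an FDR below 0.05, 27 of the 51912 listed genes differed between cKO and dKO. Of these, 10 were higher in cKO (0.0193% of the genes tested) and 17 were lower (0.0327%). DESeq2 called 4 higher and 3 lower, and the quasi-likelihood test of edgeR 21 higher and 163 lower. A gene was called expressed when it passed edgeR's filterByExpr in the 8 mice, which 12484 genes did, and 13 of the 27 were among them (0.104% of the expressed genes). Every log fold change is in log2 units, with positive values where cKO was higher.

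The 10 genes higher in cKO were *Eda2r*, *Ano3*, *Ccng1*, *Cdkn1a*, *Pvt1*, *Map3k20*, *Dglucy*, *Gm13067*, *Inka2* and *Fas*. Among them, 8 encode proteins and 2 are long noncoding RNAs. In each of the 10, every cKO mouse lay above every dKO mouse. Across the expressed genes this held for 341 (2.73%). The 10 were called on these same mice, which favors such a separation, and *Gm13067* and *Fas* were not among the expressed genes. The plot of the 10 genes by mouse shows the levels.

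**Figure D1:**
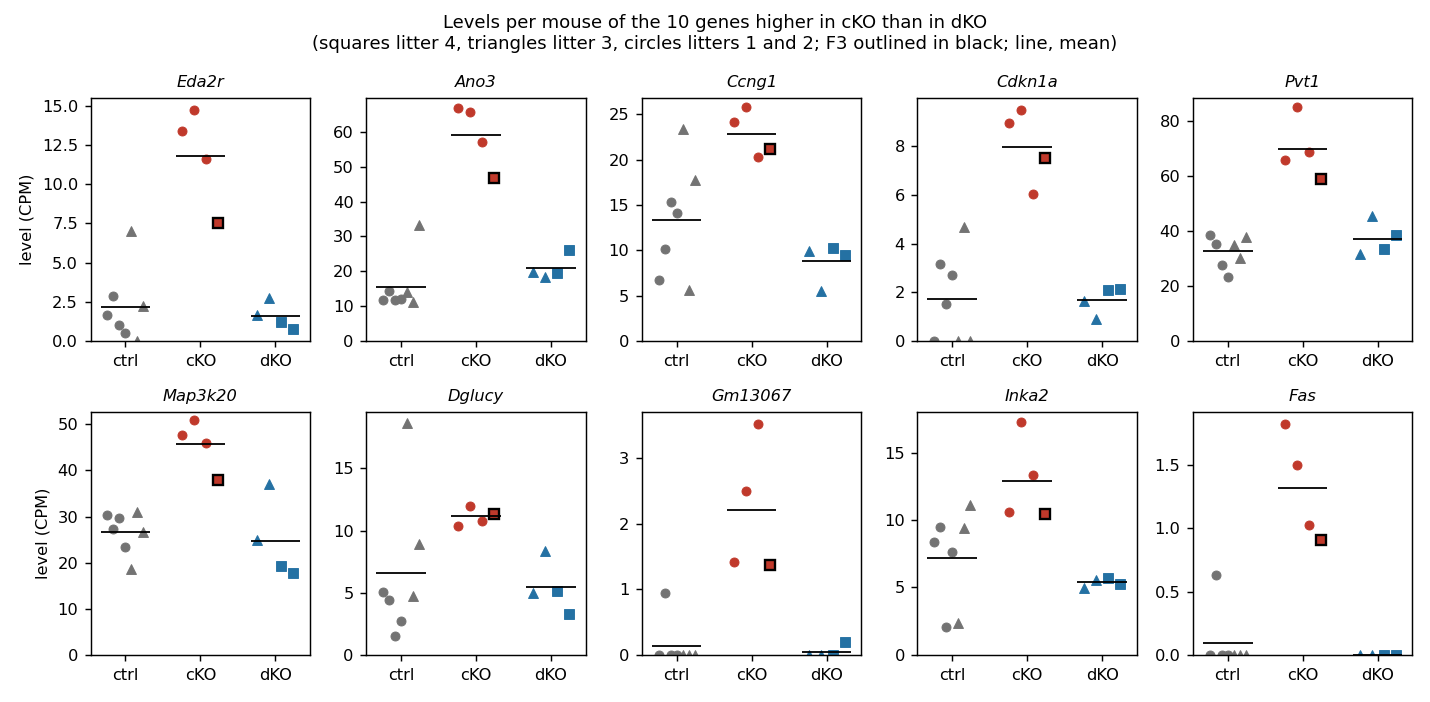
Level in CPM (vertical axes, from 0) of each of the 10 genes in every ctrl, cKO and dKO mouse, with 1 point per mouse and a line at the group mean. In each panel the 4 cKO points, the outlined F3 included, lie above the 4 dKO points, and the highest ctrl point of Dglucy lies above all cKO points.

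*Cdkn1a* encodes p21, the inhibitor of cyclin-dependent kinases through which p53 arrests the cell cycle. The gene (ENSMUSG00000023067, chromosome 17, 29090976 to 29100727) was at 8.94, 9.50, 6.03 and 7.5 CPM in cKO mice 5, 7, S2 and F3. In dKO mice T2, T8, F1 and F7 it was at 1.66, 0.924, 2.11 and 2.13 CPM. The lowest cKO mouse was thus well above the highest dKO mouse, and F3 was not the lowest. The dKO levels rest on 1 count each in T2 and T8, and on 7 and 11 counts in F1 and F7. In T2 the floor of 3 counts is 5.43 CPM, close to the level of S2, so F1 and F7 carry most of the weight. The log fold change was 2.01 (edgeR FDR of 0.00041, SE of 0.366).

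*Ccng1* encodes cyclin G1, which takes part in the feedback on p53. It (ENSMUSG00000020326, chromosome 11, 40748552 to 40755311) was at 24.2, 25.8, 20.2 and 21.1 CPM in cKO and at 9.95, 5.54, 10.3 and 9.51 CPM in dKO. The spread within each group was small beside the gap between them. Its log fold change was 1.31 (edgeR FDR of 2.75e-05, SE of 0.217). *Pvt1*, a long noncoding RNA beside *Myc* (ENSMUSG00000097039, chromosome 15, 62037986 to 62378096), was at 65.8, 85.0, 68.5 and 58.9 CPM in cKO and at 31.5, 45.3, 33.5 and 38.4 CPM in dKO. Its difference was the smallest of the 10, with a log fold change of 0.91 (edgeR FDR of 0.00129, SE of 0.174).

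Of the cell surface receptors, *Eda2r* showed the clearest difference. *Eda2r* encodes a member of the tumor necrosis factor receptor family that binds ectodysplasin A2 (ENSMUSG00000034457, chromosome X, 97333840 to 97377216). It was at 13.4, 14.8, 11.6 and 7.5 CPM in cKO and at 1.66, 2.77, 1.21 and 0.776 CPM in dKO. F3 was the lowest of the cKO mice and still above each dKO mouse. The dKO levels rest on 1, 3, 4 and 4 counts. The floor of 3 counts in T2, 5.43 CPM, lies below F3. The log fold change was 3.25 (edgeR FDR of 3.31e-10, SE of 0.417).

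*Fas* encodes the death receptor of the same family (ENSMUSG00000024778, chromosome 19, 34290666 to 34327772). It had 9, 6, 9 and 4 counts in cKO mice 5, 7, S2 and F3 and 0 counts in all 4 dKO mice. In CPM these were 1.83, 1.5, 1.02 and 0.909 in cKO. With 28 counts in cKO and 0 in dKO, and 3 counts over the dKO group as the floor, *Fas* was at least 4.21-fold higher in cKO (edgeR FDR of 0.0393). In T2 and T8 the floor of a single library was above these levels, so the zeros that carry weight are those of F1 and F7.

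Among the others, *Ano3*, a member of the anoctamin family of membrane proteins (ENSMUSG00000074968, chromosome 2, 110655201 to 110950923), was at 66.8, 65.5, 57.1 and 46.8 CPM in cKO and at 19.9, 18.5, 19.6 and 26.0 CPM in dKO. The log fold change of *Ano3* was 1.45 (edgeR FDR of 1.48e-09, SE of 0.193). *Map3k20* encodes the stress-activated kinase ZAK (ENSMUSG00000004085, chromosome 2, 72285637 to 72442610). It was at 47.7, 51.0, 46.0 and 38.0 CPM in cKO and at 24.9, 37.0, 19.3 and 17.9 CPM in dKO. F3 and T8 lay 1 CPM apart, so that the groups were separate but close. Its log fold change was 1.01 (edgeR FDR of 0.00831, SE of 0.211).

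*Dglucy*, the gene of the mitochondrial enzyme D-glutamate cyclase (ENSMUSG00000021185, chromosome 12, 100779057 to 100896981), was at 10.4, 12, 10.8 and 11.4 CPM in cKO and at 4.97, 8.32, 5.13 and 3.30 CPM in dKO. *Inka2*, whose product inhibits the kinase PAK4 (ENSMUSG00000048458, chromosome 3, 105704599 to 105720842), was at 10.6, 17.3, 13.3 and 10.5 CPM in cKO and at 4.97, 5.54, 5.74 and 5.24 CPM in dKO. Both were higher in each cKO mouse, with log fold changes of 1.25 and 1.26 (edgeR FDR of 0.0233 and 0.0307). The long noncoding RNA *Gm13067* (ENSMUSG00000086665, chromosome 4, 150049013 to 150056976) was at 1.42, 2.5, 3.53 and 1.36 CPM in cKO, and among dKO mice it was detected with 1 count, in F7. Over the groups this was 54 counts against 1, a ratio of 24.4 with a 95% counting interval of 4.19 to 980 (edgeR FDR of 0.0233). In T2 the floor of 3 counts, 5.43 CPM, was above all of these cKO levels.

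The study had named 8 targets of p53 among the genes changed in cKO, and 7 of the 10 belong to them. Those 8 were chosen on these cKO mice, so their direction is not independent evidence. The eighth, *Trp53cor1* (lincRNA-p21), a noncoding RNA transcribed near *Cdkn1a*, was at 2.44, 1.75, 1.59 and 2.73 CPM in cKO and at 0, 0, 0.604 and 1.55 CPM in dKO. The groups did not overlap, but the log fold change of 1.16 had an unadjusted edgeR p of 0.0385 and an FDR of 1. In T2 and T8 the floors of 3 counts, 5.43 and 2.93 CPM, were above every cKO level, so those zeros carry little weight. S2 and F7, with 14 and 8 counts, lay close together. *Gm13067*, *Inka2* and *Fas* are not among the 8.

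Stretches of sequence upstream of *Cdkn1a*, *Ccng1* and *Inka2* are shown because these 3 genes hold the p53 decamer, the 10-base element that p53 binds in pairs, within 250 bases before an annotated start. The sequences are from RefSeq promoters of GRCm38.p6, are written in the direction of the gene, and overlap no annotated exon. Capitals mark the decamers. The *Cdkn1a* stretch is chr17:29090876-29090967 on the plus strand, the *Ccng1* stretch is chr11:40755432-40755501 on the minus strand, and the *Inka2* stretch is chr3:105705347-105705416 on the plus strand, inside *Inka2* and before its downstream start.
Cdkn1a: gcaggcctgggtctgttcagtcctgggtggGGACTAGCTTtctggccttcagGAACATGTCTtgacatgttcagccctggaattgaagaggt
Ccng1: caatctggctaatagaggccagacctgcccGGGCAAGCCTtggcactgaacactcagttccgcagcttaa
Inka2: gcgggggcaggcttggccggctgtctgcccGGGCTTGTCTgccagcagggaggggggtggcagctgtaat
In *Cdkn1a* the pair of decamers lay from 73 to 42 bases before the start at 29090979, with 12 bases between them. A pair with at most 13 bases between its members was found in 18 of 27025 genes (0.0666%). The decamer alone, which reads the same way on both strands, was found in 2216 of those genes (8.2%). Of the 10 genes higher in cKO, 9 had a RefSeq promoter and 3 held the decamer, and of the 17 lower genes, 5 had one and 0 held it. A match of letters is a description of the sequence and not a measured binding site.

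The levels of ctrl mice place these differences. In ctrl *Dglucy* reached 18.7 CPM in 1 mouse, *Ccng1* 23.3 CPM and *Inka2* 11.1 CPM, within or above the cKO range. Their ctrl medians were 4.70, 14.1 and 8.40 CPM, below every cKO mouse. The lowest ctrl total was 399832 counts, less than that of T2, so the floor of 3 counts lies higher there than in T2. The part of counting error in these ctrl maxima was not tested. In cKO versus ctrl, 30 genes were higher (0.0578% of those tested) and 53 lower (0.102%) at an FDR below 0.05. In dKO versus ctrl, 25 were higher (0.0482%) and 1 was lower (0.00193%). Both comparisons use the same ctrl mice. Of the 10 genes, 7 were called in cKO versus ctrl and 0 in dKO versus ctrl. These 7 are targets that the study chose on cKO versus ctrl in these mice, so their call there is not independent evidence. *Inka2*, *Fas* and *Gm13067* did not pass in cKO versus ctrl (edgeR FDR of 0.441, 0.348 and 0.0676). The log fold changes of the 10 genes were between 0.74 and 2.74 in cKO versus ctrl and between −1.87 and 0.63 in dKO versus ctrl. The −1.87 is that of *Fas* (SE of 1.2), with 0 counts in dKO and at most 0.633 CPM in ctrl, so it lies at the floor. *Cdkn1a* was 1.70 higher in cKO than in ctrl (edgeR FDR of 0.00366) and differed by −0.26 in dKO (FDR of 1). *Ano3* was the gene with the highest value in dKO versus ctrl, at 0.63 (edgeR FDR of 1, SE of 0.242), against 2.06 in cKO versus ctrl (FDR of 7.09e-23).

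**Figure D2:**
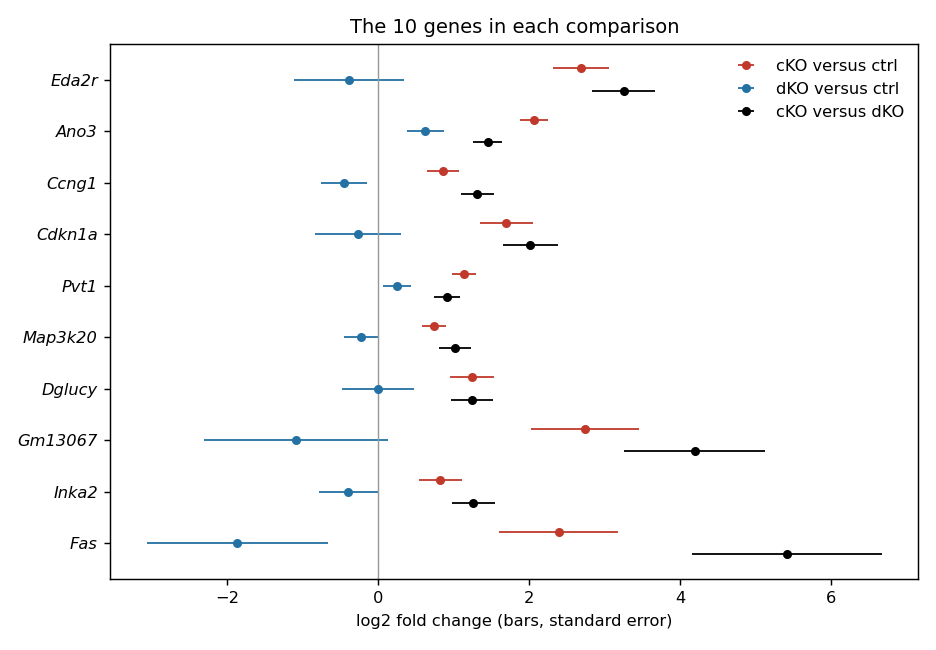
Log2 fold change (horizontal axis) with its standard error for the 10 genes in cKO versus ctrl (red), dKO versus ctrl (blue) and cKO versus dKO (black). The red points lie between 0.74 and 2.74, and the blue points between −1.87 and 0.63. The blue point at −1.87 is Fas, which had 0 counts in dKO.

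F3 was used to see what part of the difference was found within the batch and litter of the dKO mice. F3 lay above each of the 4 dKO mice in all 10 genes. Over the expressed genes this was so for 2732 (21.9%), and F3 lay below each of them for 1734 (13.9%). It was the cKO mouse nearest to dKO in 7 of the 10. With batch 3 alone, F3 against the 4 dKO mice, the log fold changes of the 10 genes were between 0.68 and 4.48, and each had an unadjusted p below 0.05. These genes were called in a fit that held F3 and the same dKO mice, so the choice of genes favors this direction, and the cKO arm is a single mouse assumed to vary like the others. None of the 10 passed the FDR there, where 1 of the listed genes was called and 660 had an unadjusted p below 0.05. With batch as a covariate in the 8 mice, 3 genes were called, and *Eda2r* was the member of the 27 among them. With all 15 mice and batch as a covariate, *Eda2r* and *Ano3* were called. Litter as a covariate, which compares mice within litter 4, called *Eda2r*, *Ano3* and *Map3k20* of the 10. The other 7 genes were called in none of these fits. In the fits of the 8 mice, F3 is the only cKO mouse beside dKO mice of its batch or litter. A genotype difference apart from batch was therefore not shown for these 7 at this threshold.

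A further check used mice with none in common. The fit without litter 4 compared 5, 7 and S2 with T2 and T8, and it was chosen after seeing the data. It called 14 genes higher in cKO (0.027%) and 58 lower (0.112%). Of the 10 genes, *Eda2r*, *Ano3* and *Ccng1* passed the FDR in it, and 9 had an unadjusted p below 0.05. *Dglucy* fell from a log fold change of 1.25 to 0.62 (unadjusted edgeR p of 0.171), and *Map3k20* from 1.01 to 0.56 (FDR of 0.718). F3 was then compared with its littermates F1 and F7. It lay above both of them in 35.9% of the expressed genes and below both in 33.1%. Of the 14 higher genes, F3 was above both in 9 (64.3%), among them *Eda2r*, *Ano3*, *Ccng1* and the mitochondrial genes *mt-Rnr1* and *mt-Rnr2*. Mitochondrial genes held 4.38% of counts in F3, against 3.18% in F1 and 2.96% in F7. Their share was 1.56% to 1.67% in 5, 7 and S2, against 0.85% in T2 and 1.27% in T8. The part of this share in the 9 genes was not tested. Of the 58 lower genes, F3 was below both in 16 (27.6%). At an unadjusted p below 0.05 the same fit gave 853 expressed genes higher (6.83%) and 453 lower (3.63%), of which F3 was above both littermates in 50.3% and below both in 38.2%.

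Both higher sets thus had larger shares in the same direction than all expressed genes. Of the lower sets, the 453 genes had a larger share and the 58 a smaller one, and among the 23 of the 58 that were expressed the share was 30.4%. Those 58 include collagen genes, and the summed level of meningeal markers was highest in T8. All 8 of the study's targets were higher in F3 than in both F1 and F7, with a median log fold change of 1.16 in that litter. The study chose these 8 on cKO mice that include F3, so their direction here is not independent evidence. Across the expressed genes, the log fold changes of the 2 sets of mice had a Spearman correlation of 0.0987 over 12484 genes, which share the libraries of each set. In litter 4, *Cdkn1a* was higher in F3 by 1.79, *Eda2r* by 2.92, *Ano3* by 1.00, *Ccng1* by 1.08 and *Map3k20* by 1.02 on the log2 scale.

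**Figure D3:**
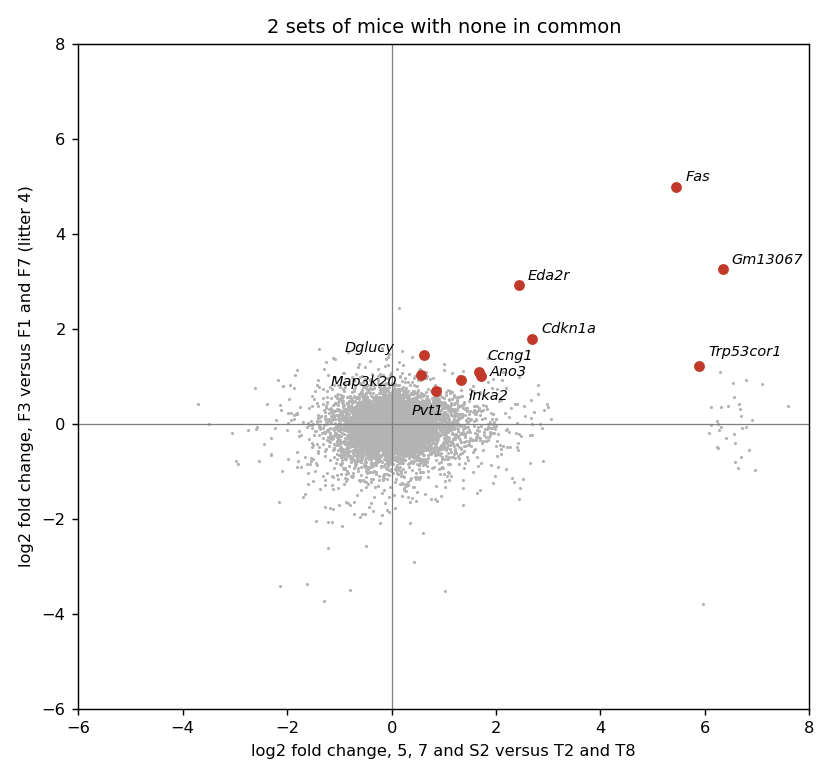
Log2 fold change of each expressed gene in mice 5, 7 and S2 versus T2 and T8 (horizontal axis) and in F3 versus F1 and F7 (vertical axis), with the 10 genes higher in cKO and Trp53cor1 in red. The red points lie to the right and above 0, while the grey cloud is centered near 0. The 10 genes were called over the mice of both axes, and the study chose Trp53cor1 on these cKO mice. Their choice therefore favors this position. Values beyond 5 come from genes with 0 counts in 1 of the groups and depend on the prior count, and 1 expressed gene lies outside the axes.

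The targets of p53 were then described by function, from 3 lists with 17, 12 and 18 expressed members. Unadjusted p below 0.05 was reached by 322 expressed genes higher in cKO (2.58%) and by 191 lower (1.53%), and the median log fold change over all expressed genes was 0.05. Of the 17 expressed genes for arrest and feedback, 5 were higher at that level and 0 lower, with a median of 0.29. Of the 12 genes for death, 4 were higher and 0 lower, with a median of 0.33. Of the 18 genes for repair and metabolism, 5 were higher and 0 lower, with a median of 0.10. Without the study's 8 targets, 40 expressed members remained in the 3 lists, of which 7 were higher (unadjusted) and 0 lower, with a median of 0.17, and 0 passed the FDR. The medians of these 40 were 0.08 in litter 4 alone, 0.11 in batch 3 alone and 0.09 in the 15 mice with batch as a covariate. Over all expressed genes the medians in these fits were −0.0085, 0.037 and 0.0024. In the 15 mice with batch, 1 of the 40 was higher and 0 lower (unadjusted edgeR p below 0.05). Of the 12484 expressed genes, 160 were higher and 237 lower there.

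The 7 were *Zmat3*, *Sesn2*, *Aen*, *Cpt1c*, *Ei24*, *Tmem63b* and *Polk*, and none of them passed the FDR. *Cpt1c*, a neuronal member of the carnitine palmitoyltransferase family, was at 45.7, 46.0, 44.3 and 45.7 CPM in cKO and at 38.1, 26.8, 33.8 and 34.7 CPM in dKO. The groups were separate, with a log fold change of 0.46 (SE of 0.153, unadjusted edgeR p of 0.0028, FDR of 0.524). *Zmat3*, the gene of an RNA-binding protein, was at 40.4, 43.3, 51.1 and 34.1 CPM in cKO and at 38.1, 23.1, 32.9 and 30.5 CPM in dKO. F3 lay within the dKO range, and the log fold change of 0.48 in all 8 mice was 0.09 in litter 4. *Sesn2*, a sestrin that restrains growth signaling under stress, was at 6.09, 5.00 and 6.48 CPM in 5, 7 and S2 and at 2.05 CPM in F3, against 1.55 to 4.62 CPM in dKO. F3 was thus at the dKO level of *Sesn2*, and in batch 3 alone its log fold change was −0.14.

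*Aen*, an exonuclease of apoptosis, was at 24.2, 31.3, 37.2 and 42.5 CPM in cKO and at 19.9, 14.8, 30.2 and 27.0 CPM in dKO. It was highest in F3, and the log fold change was 0.49 in all mice (unadjusted edgeR p of 0.0354, FDR of 1) and 0.56 in litter 4. *Ei24*, *Tmem63b* and *Polk*, the last a DNA polymerase for damaged templates, had log fold changes of 0.37, 0.29 and 0.40.

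Several of the best known targets did not pass the test. *Mdm2*, the ubiquitin ligase that degrades p53, was at 84.7, 79.3, 85.8 and 69.1 CPM in cKO and at 74.6, 89.6, 73.4 and 73.0 CPM in dKO. Its log fold change was 0.07 (edgeR FDR of 1, SE of 0.145), and its sign changed between fits. *Bbc3*, which encodes PUMA, was at 5.48, 5.75, 5.69 and 5.91 CPM in cKO and at 4.97, 0, 5.74 and 4.46 CPM in dKO (log fold change of 0.41, FDR of 1). *Bax*, the pore-forming member of the BCL2 family, had a log fold change of −0.12 (edgeR FDR of 1, SE of 0.284), with a sign that also changed between fits. *Pmaip1*, which encodes NOXA, was at 2.23, 3.25, 2.16 and 1.14 CPM in cKO and at 1.66, 0.924, 0 and 0.582 CPM in dKO. The groups overlapped, and its log fold change of 2.07 had an unadjusted edgeR p of 0.00178 and an FDR of 0.449.

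**Figure D4:**
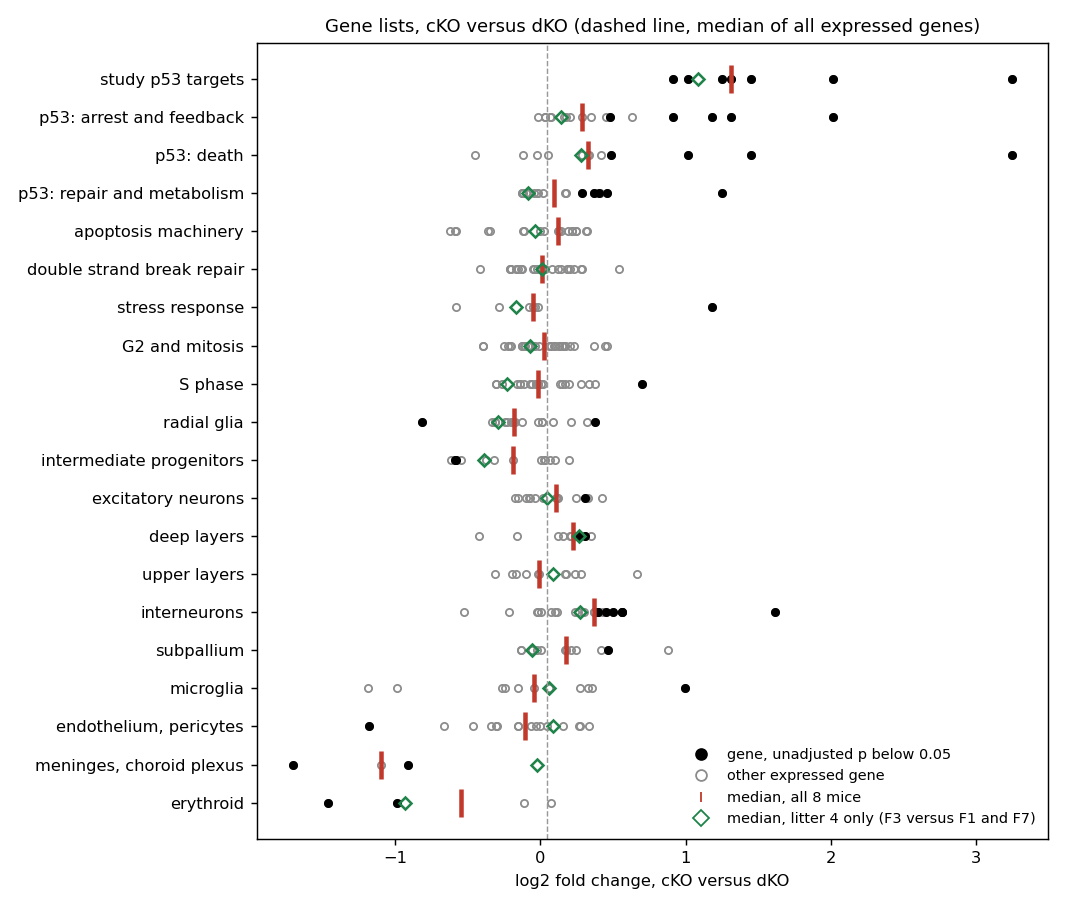
Log2 fold change in cKO versus dKO (horizontal axis) of the expressed members of 20 gene lists (rows), with filled points at an unadjusted p below 0.05, a red bar at the median of all 8 mice and a green diamond at the median in litter 4. The lists of p53 targets and of interneurons have their filled points to the right, and the medians of the cell cycle and repair lists lie near the dashed line at 0.05.

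Few genes of the apoptotic machinery, of the cell cycle and of DNA repair passed even an unadjusted threshold in the 8 mice. Of 19 expressed genes of caspases, BCL2 proteins and their inhibitors, 0 passed even an unadjusted p below 0.05, with a median log fold change of 0.12. The 30 genes of G2 and mitosis had a median of 0.02 with 0 at that level, and the 24 genes for the repair of double strand breaks a median of 0.01 with 0. Of 23 genes of S phase, the median was −0.02 and 1 was higher. The medians of both cell cycle lists were lower in other sets of mice. For G2 and mitosis the median was −0.28 in batch 3 alone and −0.25 without litter 4, with 0 and 3 genes lower (unadjusted), and for S phase it was −0.40 in batch 3 alone and −0.23 in litter 4 alone, with 0 lower in either. Over mice, the summed level of the G2 and mitosis list was 954 to 1521 CPM in cKO and 856 to 1549 CPM in dKO, and the ranges overlapped.

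The lineage of the cortex was also described. Of 18 expressed markers of radial glia, the NPCs of the ventricular zone, 1 was higher in cKO at an unadjusted p below 0.05 (*Ptprz1*) and 1 lower (*Hopx*), with a median log fold change of −0.18. Of 13 markers of intermediate progenitors, the daughter NPCs that divide into neurons, 2 were lower and 0 higher, with a median of −0.19. *Eomes* (Tbr2), which defines these cells, was at 28.2, 33.3, 48.9 and 29.8 CPM in cKO and at 44.8, 67.5, 62.2 and 40.2 CPM in dKO. The groups overlapped through S2, and F3 lay below every dKO mouse. The log fold change of *Eomes* was −0.58 (SE of 0.225, unadjusted edgeR p of 0.00977, FDR of 0.78). *Emx1*, a cortical transcription factor, was lower by a similar −0.59 (FDR of 1).

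Ctrl mice had *Eomes* at 51.4 to 98.1 CPM. Its log fold change was −1.128 in cKO versus ctrl (edgeR FDR of 5.06e-06) and −0.51 in dKO versus ctrl (FDR of 0.919). The direct test between cKO and dKO did not pass, so a difference between these values was not shown. In litter 4, *Neurog2*, a proneural factor of NPCs, had a log fold change of −1.18 and *Eomes* of −0.78, while the median of the 13 markers was −0.39 there and −0.54 without litter 4. In RNA from whole tissue, fewer cells of a type and less RNA per cell cannot be told apart.

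Interneurons migrate into the cortex from the ganglionic eminences and are mostly outside the *hGFAP-Cre* lineage of cortical NPCs. Of their 23 expressed markers, 8 were higher in cKO at an unadjusted p below 0.05 and 0 lower, with a median log fold change of 0.37, and 0 passed the FDR. *Gad1*, which makes the transmitter GABA, was at 215, 168, 179 and 165 CPM in cKO and at 106, 154, 117 and 139 CPM in dKO. Every cKO mouse was above every dKO mouse (log fold change of 0.50, SE of 0.15, unadjusted edgeR p of 0.000826, FDR of 0.303). *Erbb4*, the neuregulin receptor of migrating interneurons, was at 2162 to 3419 CPM in cKO and at 1565 to 1891 CPM in dKO, also without overlap. *Dlx2*, a transcription factor of their progenitors, had a log fold change of 0.56, and the groups overlapped. Of the 23 markers, *Gad1* and *Erbb4* were the 2 with every cKO mouse above every dKO mouse.

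Summed over the 23 markers in the files, interneuron levels were 6406, 5121, 4730 and 4528 CPM in cKO mice 5, 7, S2 and F3. They were 3678, 4140, 3378 and 3844 CPM in dKO mice T2, T8, F1 and F7. Ctrl mice were between 3030 and 4034 CPM, so that T8 was the dKO mouse above the ctrl range while all cKO mice were above it. *Erbb4* and *Nxph1* made up much of these sums, at 3419 and 1174 CPM in mouse 5 and at 1744 and 680 CPM in T2. Within litter 4 the median of the list was 0.27, and without litter 4 it was 0.24. With all 15 mice and batch as a covariate the median was 0.24. In that fit 1 member was higher and 0 lower (unadjusted edgeR p below 0.05), against 160 and 237 of 12484 expressed genes. Markers of the subpallium, the tissue next to the cortex from which interneurons come, had a median of 0.17, and 1 of 13 was higher at that level. The summed subpallial level was 3131 to 3819 CPM in cKO and 2952 to 3302 CPM in dKO. Its part in the interneuron values was not tested.

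Of 12 expressed markers of deep layer neurons, 2 were higher in cKO (*Sox5* and *Tle4*, unadjusted) and 0 lower, with a median of 0.23. The 11 of upper layer neurons had a median of −0.01, with 0 in either direction. Among 15 general markers of excitatory neurons, *Dcx*, the microtubule protein of migrating neurons, was higher (log fold change of 0.31, FDR of 1), and the median was 0.11. The summed excitatory level was 9769 to 10304 CPM in cKO and 8706 to 10145 CPM in dKO, and these ranges overlapped.

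Microglia, the phagocytes of the brain, were sampled thinly. Of 28 markers, 11 were expressed, and 1 was higher at an unadjusted p below 0.05 and 0 lower, with a median of −0.05. *Lcp2*, an adaptor protein of blood-derived cells, was at 3.25, 3.75, 2.28 and 3.64 CPM in cKO and at 0, 0, 1.51 and 2.33 CPM in dKO. S2 and F7 overlapped, and the log fold change of 0.99 had an FDR of 1. *Aif1*, the gene of the microglial marker IBA1, had at most 5 counts in any of the 8 mice, and *Cx3cr1* had 5 to 53. Over the 27 markers reported here, the summed level was 72.9 to 113 CPM in cKO and 90.2 to 94.2 CPM in dKO. The ranges overlapped.

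The genes lower in cKO were of another kind. Of the 17, 1 encodes a protein, 9 are antisense transcripts, 4 are long intergenic RNAs, 2 are small RNAs annotated as misc_RNA and 1 is a transcript to be experimentally checked. Reads of an antisense gene and of its partner cannot be told apart here, because the use of strand in counting is not given in the sources used here. The mean level in cKO was at most 5 CPM for 16 of them. Of the 17, 3, namely *Ttr*, *Gm26745* and *Gm24514*, had every cKO mouse below every dKO mouse, which 133 expressed genes (1.07%) had.

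In 13 of the 17 genes, all noncoding, F7 was the highest of the 8 mice. *Gm37376*, for example, was at 0.609, 1.25, 0.569 and 3.41 CPM in cKO and at 0, 5.54, 8.15 and 64.0 CPM in T2, T8, F1 and F7. *Gm16279* was at 1.14 to 2.75 CPM in cKO and at 1.66, 5.54, 4.53 and 55.3 CPM in dKO. Without F7, all 13 remained lower in cKO and 12 had an unadjusted p below 0.05, while 0 passed the FDR. Their log fold changes were then between −4.55 and −1.24, against −6.08 to −2.10 with F7. The same fit called 5 of the 10 higher genes. *Gm26745* is 1 of the 13, and its dKO mice T2, T8 and F1 (13.3, 9.24 and 6.04 CPM) also lay above every cKO mouse (at most 4.32 CPM). Its log fold change was −1.53 without F7 and −2.15 without litter 4, where it passed (edgeR FDR of 0.0336). F7 also had the highest share of counts on antisense genes, 0.492% against 0.327% to 0.390% in the other 7 knockout mice, and the highest share of reads outside genes, 13.3% against 5.86% to 11.2% in the other libraries of the 8 mice. The part of these features of the F7 library in the 13 genes was not tested.

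**Figure D5:**
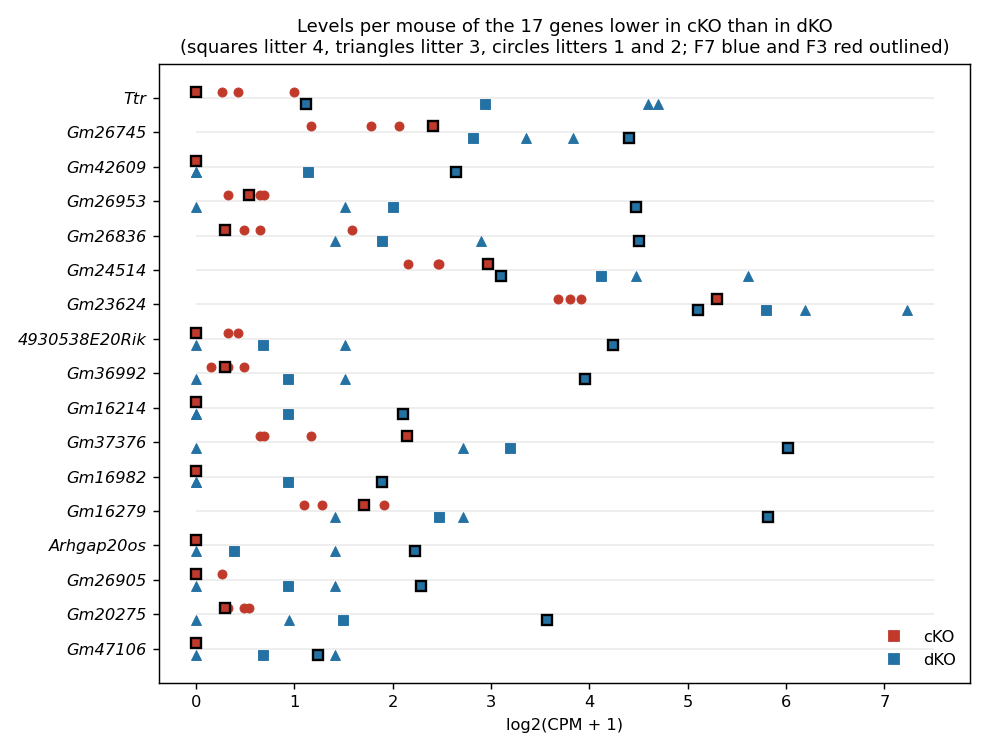
Level as log2(CPM + 1) (horizontal axis) of the 17 genes lower in cKO (rows) in the 4 cKO mice (red) and 4 dKO mice (blue), with F3 and F7 outlined. F7 is the rightmost point in 13 of the 17 rows, and in Ttr, Gm24514, Gm23624 and Gm47106 a litter 3 mouse is.

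*Ttr* encodes transthyretin, which is made by the choroid plexus. It (chromosome 18, 20665280 to 20674321) was at 0.203, 1.00, 0.341 and 0 CPM in cKO and at 23.2, 24.9, 6.64 and 1.16 CPM in dKO. The order followed litter within dKO, with T2 and T8 above F1 and F7. *Ttr* also went with depth over all mice. Its median was 24.1 CPM in the 6 mice with totals of at most 1023405 counts and 0.341 CPM in the 9 deeper mice. Their ranges overlapped, at 0 to 51.1 CPM and 0 to 53.2 CPM, and the part of depth was not tested. The log fold change was −5.02 (edgeR FDR of 0.000404, SE of 0.907), and *Ttr* was the member of the 17 that stayed below an FDR of 0.05 whichever mouse was left out. Ctrl mice ranged from 0 to 53.2 CPM with a median of 4.70, and this range covers both groups. The log fold change was −5.61 in cKO versus ctrl (edgeR FDR of 0.00652) and −0.56 in dKO versus ctrl (SE of 0.84). *Folr1*, another choroid plexus gene, had at most 2 counts in each of the 8 mice. For 16 markers of meninges and choroid plexus together, the summed level was 204 CPM in T8 and 18.1 to 41.4 CPM in the other 7. How much of these tissues came with the cortex was not tested.

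The small RNA genes *Gm24514* and *Gm23624* had log fold changes of −2.12 and −1.95 (edgeR FDR of 0.009 and 0.0215). *Gm23624* was at 11.8, 13, 14.1 and 38.4 CPM in cKO and at 149, 72.1, 54.6 and 33.4 CPM in dKO, so F3 lay above F7. Both went with depth over all mice. In the 6 mice with totals of at most 1023405 counts, T2 and T8 and 4 ctrl mice, *Gm23624* was at 56.5 to 247 CPM, and in the 9 deeper mice it was at 11.8 to 54.6 CPM. In litter 4 the log fold change of *Gm23624* was −0.19 and that of *Gm24514* −0.79. The part of depth was not tested further.

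Among expressed protein-coding genes lower in cKO, *Ltbp1*, *Itga11* and *Dhrs3* passed the FDR when only expressed genes were tested (FDR of 0.026, 0.0191 and 0.0369) and not over all listed genes (0.0796, 0.0867 and 0.137). They were added to the text after their values were seen. *Ltbp1*, which binds latent TGF-beta in the matrix, was at 55.1, 43.3, 70.2 and 46.6 CPM in cKO and at 103, 129, 92.1 and 72.4 CPM in dKO. F3 lay below F1 and F7, and the log fold change was −0.83 both in all mice and in litter 4. Ctrl mice had *Ltbp1* at 67.9 to 204 CPM, a log fold change of −1.36 in cKO versus ctrl (edgeR FDR of 7.93e-07) and of −0.48 in dKO versus ctrl (FDR of 1). *Dhrs3*, a retinal reductase, was at 2.25 to 4.67 CPM in cKO and at 6.94 to 11.6 CPM in dKO, without overlap.

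Markers of blood and vessels were also examined. *Alas2*, the heme synthesis enzyme of red cells, was at 1.22, 1.25, 2.16 and 1.36 CPM in cKO and at 3.32, 3.70, 3.02 and 6.21 CPM in dKO, with an unadjusted edgeR p of 0.000719 and an FDR of 0.289. Every cKO mouse lay below every dKO mouse. *Hba-a2*, an alpha globin, had a log fold change of −0.98 (unadjusted edgeR p of 0.00561, FDR of 0.62), and its groups overlapped. The summed level of 11 erythroid genes overlapped, at 18.9 to 35.0 CPM in cKO and 26.5 to 34.2 CPM in dKO. Of 16 expressed markers of endothelium and pericytes, 1 was lower (*Emcn*, unadjusted) and 0 higher, and T8 stood apart with a summed level of 516 CPM against 265 to 318 CPM in the other 7. *Pdgfra*, a receptor of oligodendrocyte precursors, was 1 of 6 markers of that lineage with an unadjusted p under 0.05 and a lower level in cKO (log fold change of −0.82, FDR of 0.505). Of 9 markers of Cajal-Retzius neurons 1 was lower (*Lhx5*), of 7 stress genes 1 was higher (*Sesn2*), and of 3 interferon genes 0 differed at that level. Expressed markers of meninges (3) and red cells (4) each had 2 lower and 0 higher.

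Over all expressed genes, the difference also varied with gene length and with level. When genes were divided into 5 equal bins of span, in the bin of the shortest, 57 to 9999 bases, the median log fold change was −0.03, with 1.00% of its genes above and 2.57% below dKO at an unadjusted p under 0.05. In the bin of the longest spans the median was 0.12, and 6.14% were higher and 1.56% lower. In 5 equal bins of mean CPM, the median went from −0.05 in the lowest to 0.12 in the highest, and the share higher from 1.60% to 5.93%. Genes such as *Erbb4*, *Nxph1*, *Sox5* and *Ptprz1* are among those with long spans. Levels themselves rose with the span of a gene (Spearman correlation of 0.53 over 12465 genes, which share the same libraries), and whether reads in introns were counted is not given in the sources used here. The spans of *Pvt1*, *Ano3*, *Map3k20* and *Dglucy* are in the longest bin, and those of *Eda2r*, *Cdkn1a*, *Ccng1*, *Fas* and *Inka2* are not.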

How the data were processed

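Total RNA depleted of rRNA was sequenced from the cortex of 15 mice as UMI-tagged Click-seq libraries, 16 in all. The authors processed the reads with bcl2fastq 2.17, UMI-tools 0.5.3, cutadapt 1.13, STAR 2.5.2a and HTSeq 0.6.1p1 (mode intersection-nonempty) on GENCODE GRCm38. The deposited values are raw counts per gene by the authors. The 5 summary lines of each file were left out of library sizes. The annotation release, the strand setting and the treatment of introns are not given in the sources used here. Gene positions were read from GENCODE vM21, for 51719 of 51912 listed genes.

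From the counts, edgeR 4.0.16 (R 4.3.3) with TMM normalization, a likelihood ratio test and Benjamini-Hochberg FDR compared 4 cKO with 4 dKO mice, all listed genes and no covariates, at a threshold of 0.05. CPM used TMM over 15 mice. Standard errors were derived from the likelihood ratio. The libraries S2 and S2b (chi-square per degree of freedom of 1.14 over 13658 genes, against 3.56 to 27.4 for other pairs) were summed. On simulated data of 51912 genes, the comparison recovered 35 and 31 of 50 genes changed by 1 and −1 on the log2 scale, and 50 and 47 of 50 changed by 2 and −2. The changed genes were all expressed genes, every gene had the same dispersion, and no batch or litter effect was simulated. The recovery therefore does not give the power of the comparison in these mice. DESeq2 1.42.0, the quasi-likelihood test, other filters, batch, litter and sex terms, thinned counts and leaving out mice were alternatives. The totals of cKO and dKO differed with an exact two-sided permutation p of 0.114, where 0.0286 is the smallest possible.

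The rule for named genes took *Knl1*, *Trp53*, all genes called, the study's 8 targets of p53, and from each of 23 gene lists the 4 expressed members with the smallest p, with defining markers of tissue lists. Other genes named (such as *Mdm2*, *Bax*, *Pmaip1*, *Gm42418* and *Ltbp1*) were chosen for their known role or after their values were seen. Some genes that the rule took are not reported here. Members and lists were chosen with earlier results of these data known. The intervals and floors cover counting error only.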

Additional observations from a re-analysis of the deposited data

Results flagged for a closer look

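In 292 groups of 4 mice (146 named genes in cKO and in dKO), 33 had 1 mouse far from the other 3, where chance flags about 1 in 20 groups. That rate holds for genes taken without regard to their values, and many of these were called or chosen after their values were seen. *Gm13067* in F7 and *Gm26905* in mouse 5 rest on 1 count each. The values are in CPM. In F7 these were *Gm26953* at 21.2, *Gm13067* at 0.194, *4930538E20Rik* at 17.9, *Gm36992* at 14.6, *Gm37376* at 64.0, *Gm16279* at 55.3, *Gm20275* at 10.9 and *Nxph1* at 851, each the highest of dKO. In T8 they were *Ccng1*, the lowest at 5.54, and as the highest *Mdm2* at 89.6, *Gad2* at 362, *Mrc1* at 11.1, *Emcn* at 15.7, *Cdh5* at 25.9, *Cldn5* at 15.7 and *Col3a1* at 22.2. In T2 *Lhx5* at 18.2 and *Dhrs3* at 11.6 were the highest, and *Neurod6* at 64.6 was the lowest.

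In cKO, S2 was highest in *Knl1* at 80.4, *Polk* at 20.1, *Aurka* at 26.2, *Alas2* at 2.16 and *Brca2* at 41.1, and lowest in *Lgmn* at 18.1. F3 was highest in *Gm23624* at 38.4, *Gm42418* at 20405 and *Filip1l* at 20.5, and lowest in *Hba-a1* at 5.91. Mouse 5 was highest in *Gm26905* at 0.203 and lowest in *Gadd45g* at 2.64, and mouse 7 was lowest in *Hopx* at 1.5. F1, of the same litter as F3, was highest among dKO in *Gm42418* at 38808. The reads outside annotated genes, which enter no comparison, made up 11.2% in F1 and 13.3% in F7, above the 6.06% to 9.52% of ctrl libraries. An interaction of sex and genotype, added after seeing the data, was called for 0 genes by edgeR, with a smallest FDR of 0.0981 and 1372 genes at an unadjusted p below 0.05.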

How the results depend on the processing

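The number of genes called depended on the fit. Against 27 (10 higher and 17 lower in cKO), the quasi-likelihood test called 184 (21 and 163), DESeq2 7 (4 and 3), the filter on expressed genes 14 (8 and 6), all 15 mice 14 (6 and 8), all 15 mice with batch 2 (2 and 0), batch as a covariate 3 (3 and 0), batch 3 alone 1 (1 and 0), litter 4 alone 8 (2 and 6), dKO of litter 3 alone 58 (9 and 49), dKO of litter 4 alone 154 (12 and 142), sex as a covariate 44 (10 and 34), S2 and S2b apart 41 (10 and 31), counts thinned to the lowest total 7 (2 and 5) and, added after seeing the data, the fit without litter 4 72 (14 and 58). Leaving out 1 mouse gave 6 to 179 calls, 4 to 10 higher and 1 to 173 lower, with the most without F1 and the fewest without 7. *Ccng1*, *Cdkn1a*, *Eda2r*, *Ano3* and *Ttr* passed whichever mouse was left out. The size factors of DESeq2 (28), litter as a covariate (23), S2 or S2b alone (22 and 23) and leaving out F3 (23) stayed within 1.5 times.

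Log fold changes turned sign as follows. With all 15 mice and batch, *Trp53* was −0.11, *Mdm2* −0.042, *Bax* 0.39 and *Col3a1* 0.39. With batch as a covariate, *Mdm2* was −0.13, *Sesn2* −0.047 and *Gm42418* 0.94, and in batch 3 alone −0.14, −0.14 and 0.94. With litter as a covariate, *Mdm2* was −0.0655, *Emcn* 0.12, *Igf2* 0.0044 and *Lhx5* 0.21, and in litter 4 alone *Mdm2* was −0.098, *Emcn* 0.0896 and *Lhx5* 0.18. With dKO of litter 3, *Trp53* was −0.052, *Mdm2* −0.062, *Bax* 0.072, *Gm42418* 2.94 and *Filip1l* 1.94. With thinned counts, *Trp53* was −0.29, *Mdm2* −0.0131 and *Polk* −0.079. Without litter 4, *Trp53* was −0.024, *Mdm2* −0.015, *Bax* 0.027 and *Filip1l* 0.44. Leaving out 1 mouse, *Bax* ranged from −0.31 (without S2) to 0.018 (without 7), *Col3a1* from −2.09 (without F7) to 0.11 (without T8) and *Gm42418* from −3.99 (without F3) to 1.89 (without F1). The cause was not tested. Depth limits low genes, since 3 counts are 5.43 CPM in T2 and 2.93 CPM in T8. No paired analysis was possible by replicate number because the numbers only follow the order of the samples, and litter 4, the litter with both genotypes, was used as above.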
